A study of Mus musculus with 16 samples.

Results

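The antioxidant genes driven by the transcription factor NRF2, together with genes that keep cells from ferroptosis, were followed in the hippocampus of WT and 3xTg mice infused with vehicle or with an inhibitor of stearoyl-CoA desaturase (SCD). The 10 genes were chosen by name from the deposited table of gene counts: Nfe2l2, which encodes NRF2, and Hmox1, Nqo1, Slc7a11, Gclc, Gclm, Txnrd1, Srxn1, Gpx4 and Fth1. The table held 55335 genes, of which 16475 passed the filter on low counts, and all 10 of the named genes passed it.

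NRF2 is held at low levels by KEAP1, which hands it to the proteasome. Electrophiles and oxidants modify KEAP1, and NRF2 then accumulates and binds antioxidant response elements with small MAF proteins. Ferroptosis is a form of cell death that follows iron-dependent peroxidation of polyunsaturated membrane lipids. GPX4 reduces these lipid peroxides with glutathione, whose synthesis depends on cystine brought in by SLC7A11 and on glutamate-cysteine ligase, and ferritin stores iron away from peroxidation. SCD makes monounsaturated fatty acids, which are poor substrates of lipid peroxidation. In brain, NRF2 activity is best known from astrocytes and is low in neurons.

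The antioxidant response element was looked for as the core TGACNNNGC, on both strands, in the 250 bases before each RefSeq transcription start (GRCm38.p6). Windows were matched by symbol for 8 of the 10 genes, all but Hmox1 and Gclc. The core was in a window of 3 of these 8, against 10.2% of all 32851 windows and 11.5% of the 27025 genes with a window. These 3 stretches are shown as the candidate NRF2 recognition letters of the set, read along the plus strand of the genome for Gclm and Txnrd1 and along the minus strand, that of the gene, for Nfe2l2, with the core in capitals. In Gclm and Txnrd1 the core lay on the strand opposite to the gene, so that its reverse complement is seen. A match of letters is a description and no measurement of binding.
Nfe2l2, chr2:75704885-75704913: tcagcccaccTGACTCCGCcatgccccgg
Gclm, chr3:122245413-122245441: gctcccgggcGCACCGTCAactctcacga
Txnrd1, chr10:82859104-82859132: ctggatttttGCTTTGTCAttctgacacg

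In GRCm38 coordinates of the deposited table, Nfe2l2 spans chr2:75675513-75704641 on the minus strand and Srxn1 spans chr2:152105516-152111376. Hmox1 is at chr8:75093621-75100589 and Nqo1 at chr8:107388225-107403206. Slc7a11 lies at chr3:49892526-50443614 and Gclm at chr3:122245557-122270732, and the catalytic partner Gclc at chr9:77754535-77794485. Txnrd1 lies at chr10:82833951-82897712, Gpx4 at chr10:80047166-80056439 and Fth1 at chr19:9980598-9985098. Exons of other genes overlapped only those of Gclm, where Gm17494 on the opposite strand covered 296 of its 6291 exonic bases and the pseudogene Gm6061 on the same strand covered 244. The annotation holds 1 named pseudogene of Gpx4, and how many reads Gpx4 shares with it was not measured.

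Whole hippocampi of 16 female mice were sequenced, 4 in each of 4 groups. All mice were 10 months old and carried a brain cannula and an osmotic pump for 28 days. WT-D mice (strain C57BL/6J x 129S1) and 3xTg-D mice received the vehicle, 0.8% DMSO in artificial cerebrospinal fluid, while WT-S and 3xTg-S mice received the SCD inhibitor CAY10566, labelled Cayman 10566, at 80 µM in the same vehicle. The shared protocol text of the labels names another catalogue number, ab142089, for the inhibitor. The 3xTg line (labelled B6;129-Psen1tm1MpmTg(APPSwe,tauP301L)1Lfa/Mmjax) carries human mutant APP and tau transgenes driven by a neuronal Thy1.2 element together with a mutant presenilin-1 knock-in, and the WT mice carry a strain label of their own. In every comparison of genotypes, the mutations and the strain background therefore cannot be told apart. No group was free of surgery, DMSO or the pump.

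Reads on genes ran from 15413385 to 23590149 per mouse. Thy1, whose regulatory element drives the transgenes, checked the genotype labels, at 517 to 625 CPM (reads scaled to library size by TMM) in the 8 WT mice and 1566 to 2141 CPM in the 8 3xTg mice. Neuronal, astrocytic, oligodendrocytic and microglial markers were detected in every mouse, as the tissue label requires. Choroid plexus markers summed to 727 CPM in WT-D replicate 4 and 289.6 CPM in WT-S replicate 1, against 27.1 to 60.2 CPM in the other 14 mice. 3xTg-D replicate 2 stood apart, with the deepest library, the highest astrocyte sum (3934 CPM), the highest microglia sum (482 CPM) and the lowest neuron sum (4893 CPM) of all 16. Uniquely mapped reads outside any annotated gene made up a share that ranged from 7.82% in 3xTg-S replicate 2 to 15.1% in 3xTg-S replicate 4. In whole tissue, fewer cells of a type and less RNA per cell cannot be told apart.

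Ferritin heavy chain was far above the other genes in every group. Scaled also to exon length (RPKM, mean ± SD over the 16 mice), Fth1 was at 555 ± 88.4, followed by Srxn1 at 24.0 ± 1.61, Gpx4 at 20.6 ± 2.81 and Gclc at 18.5 ± 0.852. A middle pair was formed by Gclm at 10.9 ± 0.668 and Txnrd1 at 9.37 ± 0.630. Below them were Nfe2l2 at 5.43 ± 0.763, Slc7a11 at 4.57 ± 0.927, Hmox1 at 2.64 ± 0.420 and Nqo1 at 2.63 ± 0.614. Within 1 SD of each mean, Srxn1 overlapped with Gpx4, Gpx4 with Gclc, Nfe2l2 with Slc7a11, and Hmox1 with Nqo1. These lengths count the exons of every annotated transcript, and how much each exon was used was not measured.

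None of the 10 genes differed between groups at the study's threshold, an unadjusted p of 0.01 or less, in edgeR's quasi-likelihood test without a replicate block, in any of the 5 pairwise comparisons or in the genotype by inhibitor interaction. Over all 16475 genes the share past this threshold was 4.91% for WT-D vs 3xTg-D, 4.26% for WT-S vs 3xTg-S, 0.904% for 3xTg-D vs 3xTg-S, 0.188% for WT-D vs WT-S, 5.69% for WT-D vs 3xTg-S and 0.595% for the interaction. At those shares, no call among 10 genes is close to the background. DESeq2 also called 0 of 10 in each, against 5.28%, 4.58%, 1.01%, 0.261%, 6.26% and 0.692% of all genes in the same order. At an unadjusted p under 0.05, edgeR gave 1 gene in WT-D vs 3xTg-D (12.6% of all genes), 2 in WT-S vs 3xTg-S (10.7%), 2 in 3xTg-D vs 3xTg-S (6.33%), 1 in WT-D vs WT-S (2.25%), 2 in WT-D vs 3xTg-S (13.1%) and 1 for the interaction (4.98%). In the main fits, with no replicate block, no covariate and no mouse left out, the lowest edgeR adjusted p of any of the 10 genes was 0.286. With the share of reads outside genes as a covariate, Slc7a11 reached edgeR adjusted p = 0.0206 in WT-D vs 3xTg-D. Exact two-sided permutation tests of the difference in mean log2 CPM were also run for all 50 pairs of gene and comparison, and 4 mice against 4 allow no exact p below 0.0286. The comparisons share groups of mice, so that their values are not independent of each other.

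**Figure D1:**
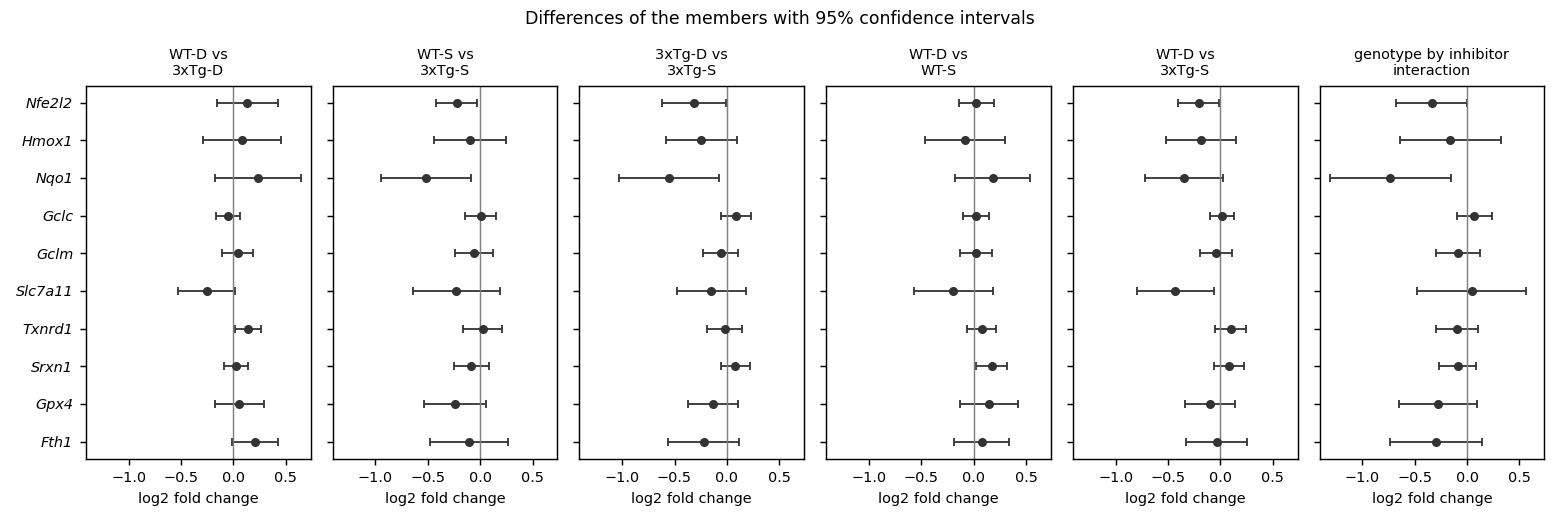
Log2 fold change (x axis) of each of the 10 genes (rows) with its 95% confidence interval from edgeR, in the 5 pairwise comparisons (second group minus first) and the genotype by inhibitor interaction. The intervals are narrow for Gclc, Gclm, Txnrd1 and Srxn1 and wide for Nqo1, Hmox1 and Slc7a11. Those of Nqo1 lie below 0 in WT-S vs 3xTg-S, in 3xTg-D vs 3xTg-S and in the interaction. Those of Nfe2l2 lie below 0 in WT-S vs 3xTg-S, in 3xTg-D vs 3xTg-S and in WT-D vs 3xTg-S. That of Slc7a11 lies below 0 in WT-D vs 3xTg-S. Above 0 lie those of Txnrd1 in WT-D vs 3xTg-D and of Srxn1 in WT-D vs WT-S.

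Nfe2l2, the gene of NRF2 itself, was lowest in 3xTg-S mice. Its level was 22.2, 19.9, 21.6 and 19.0 CPM in WT-D replicates 1 to 4, and 19.5, 29.6, 21.7 and 19.5 CPM in 3xTg-D. With inhibitor it was 22.3, 20.5, 21.1 and 20.2 CPM in WT-S, and 18.2, 19.4, 19.1 and 15.9 CPM in 3xTg-S. The 3xTg-S mice did not overlap with WT-S or 3xTg-D mice, although the gap to 3xTg-D was only that between 19.4 and 19.5 CPM, and they did overlap with WT-D. Groups that do not overlap were found for 6.75% of all genes in WT-S vs 3xTg-S and for 3.16% in 3xTg-D vs 3xTg-S, and for 1 of the 10 genes in each, which was Nfe2l2 both times; none of the 10 was so separated in WT-D vs 3xTg-D (8.17% of all genes), WT-D vs WT-S (1.48%) or WT-D vs 3xTg-S (9.55%). The log2 fold change was −0.23 ± 0.09 (SE) in WT-S vs 3xTg-S, with edgeR adjusted p = 0.366 and exact permutation p = 0.0286. In 3xTg-D vs 3xTg-S it was −0.32 ± 0.14 (edgeR adjusted p = 0.722, exact permutation p = 0.0286), and −0.17 without 3xTg-D replicate 2, the mouse at 29.6 CPM (edgeR adjusted p = 1). Against WT-D mice, 3xTg-S mice differed by −0.21 ± 0.09 (edgeR adjusted p = 0.343, exact permutation p = 0.0857). In vehicle-treated mice the genotypes differed by 0.13, with a 95% interval of −0.16 to 0.42, and by −0.04 without 3xTg-D replicate 2.

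Nqo1, a quinone reductase and the usual reporter gene of NRF2 activity, had the largest fitted differences of the set, at the lowest read counts (45 to 154 reads per mouse). WT-D mice were at 3.72, 3.70, 4.45 and 4.09 CPM and 3xTg-D mice at 4.29, 6.46, 4.30 and 3.54 CPM. WT-S mice were at 5.26, 4.87, 4.54 and 3.36 CPM and 3xTg-S mice at 3.40, 3.91, 2.89 and 2.48 CPM. All groups overlapped, with 3xTg-S holding the 2 lowest mice and 3xTg-D replicate 2 the highest. The log2 fold change was −0.52 ± 0.19 (SE) in WT-S vs 3xTg-S (edgeR adjusted p = 0.336, exact permutation p = 0.0857) and −0.55 ± 0.21 in 3xTg-D vs 3xTg-S (edgeR adjusted p = 0.722, exact permutation p = 0.0571). The latter was −0.36 without 3xTg-D replicate 2 (edgeR adjusted p = 1). In WT-D vs WT-S the difference was 0.18, with an interval of −0.17 to 0.54. The difference between both inhibitor effects, the interaction, was −0.73 ± 0.27 with an interval of −1.31 to −0.16 (edgeR adjusted p = 0.788). Blocked on replicate number, the Nqo1 interaction was −0.71 with an interval of −1.20 to −0.21 and passed the unadjusted threshold (edgeR adjusted p = 0.256). By the rule used the numbers pair the WT-D with the WT-S mice. The block of the interaction also ties the 3xTg mice, whose numbers were not shown to pair them. Blocked in the same way, Nqo1 also passed the unadjusted threshold in WT-S vs 3xTg-S (−0.52, edgeR adjusted p = 0.0879). It passed as well in 3xTg-D vs 3xTg-S (−0.54, edgeR adjusted p = 0.0928), and in neither comparison were the numbers shown to pair the mice. Single mice decided whether Nqo1 passed the unadjusted threshold. In WT-S vs 3xTg-S it passed without WT-S replicate 4 (−0.64, edgeR adjusted p = 0.133) and without 3xTg-S replicate 2 (−0.65, edgeR adjusted p = 0.154). The interaction passed without 3xTg-D replicate 4 (−0.85, edgeR adjusted p = 0.593), without WT-S replicate 4 (−0.86, edgeR adjusted p = 0.366) and without 3xTg-S replicate 2 (−0.88, edgeR adjusted p = 0.308). Without 3xTg-D replicate 2, the interaction of Nqo1 shrank to −0.54 (edgeR adjusted p = 0.968).

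Hmox1, heme oxygenase 1, which breaks down heme and releases its iron, was as sparse as Nqo1. With vehicle its mean was 4.75 ± 0.832 CPM (SD, n = 4) in WT mice and 5.01 ± 0.915 in 3xTg mice, and with inhibitor 4.50 ± 0.808 and 4.24 ± 0.299, and the groups overlapped throughout. The largest Hmox1 difference was that of 3xTg-D vs 3xTg-S, where the log2 fold change of −0.24 had an interval of −0.58 to 0.09 (adjusted p = 0.728 by edgeR, exact permutation p = 0.143). Without 3xTg-D replicate 2 it was −0.12. The pairwise intervals of Hmox1 reached down to −0.58 and up to 0.46.

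Slc7a11, the cystine-glutamate exchanger that feeds glutathione synthesis, was the most variable gene of the set within the WT-S and 3xTg-S groups, with coefficients of variation of 24.1% and 23.2%. WT-D mice were at 89.7, 75.4, 68.2 and 60.5 CPM and 3xTg-D mice at 53.6, 70.4, 61.2 and 60.2 CPM. WT-S mice were at 79.6, 48.4, 53.8 and 75.3 CPM and 3xTg-S mice at 71.1, 47.4, 42.8 and 60.2 CPM. All groups overlapped, with the WT-D mean highest and the 3xTg-S mean lowest. The log2 fold change was −0.26 ± 0.12 (SE) in WT-D vs 3xTg-D (edgeR adjusted p = 0.421, exact permutation p = 0.171) and −0.43 ± 0.17 in WT-D vs 3xTg-S (edgeR adjusted p = 0.286, exact permutation p = 0.114). Without 3xTg-S replicate 1, at 71.1 CPM, the latter was −0.57 and passed the unadjusted threshold (edgeR adjusted p = 0.139). Without WT-D replicate 1, at 89.7 CPM, these differences of Slc7a11 were smaller, at −0.15 against 3xTg-D and −0.31 against 3xTg-S mice. With the share of reads outside genes as a covariate, the vehicle comparison of genotypes passed it at −0.45 with edgeR adjusted p = 0.0206, and with the choroid plexus markers as a covariate it passed at −0.39 with edgeR adjusted p = 0.175. Its difference between inhibitor and vehicle was −0.19 in WT mice and −0.15 in 3xTg mice, with intervals of −0.57 to 0.18 and −0.48 to 0.18. With 1 mouse left out these ran from −0.32 to −0.08 and from −0.29 to −0.06.

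Gclc and Gclm, the catalytic and the modifier subunit of glutamate-cysteine ligase, were the steadiest genes of the set, with coefficients of variation of 4.61% and 6.14% over the 16 mice. Gclc means were 69.5 ± 0.984, 67.1 ± 3.83, 70.4 ± 3.76 and 71.3 ± 3.03 CPM (SD, n = 4) in WT-D, 3xTg-D, the WT-S group and 3xTg-S, and Gclm means were 68.0 ± 3.80, 69.8 ± 4.93, 69.1 ± 4.50 and 66.9 ± 4.81 CPM. Every pairwise interval of Gclc lay between −0.16 and 0.23 on the log2 scale and every one of Gclm between −0.24 and 0.19. The largest Gclc difference was 0.09, in 3xTg-D vs 3xTg-S (edgeR adjusted p = 0.739, exact permutation p = 0.171), and it was 0.04 without 3xTg-D replicate 2.

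Txnrd1, cytosolic thioredoxin reductase, and Srxn1, sulfiredoxin, which repairs overoxidized peroxiredoxins, each reached an unadjusted p under 0.05 in 1 comparison. Txnrd1 was at 62.5, 64.9, 62.5 and 61.0 CPM in WT-D and at 64.0, 72.7, 71.7 and 67.2 CPM in 3xTg-D. WT-S mice were at 67.4, 71.8, 63.4 and 61.8 CPM and 3xTg-S mice at 69.8, 74.9, 63.3 and 63.7 CPM. In WT-D vs 3xTg-D, 3 of the 4 3xTg-D mice exceeded all WT-D mice. The log2 fold change was 0.14 ± 0.06 (SE), with edgeR adjusted p = 0.332 and exact permutation p = 0.0571. With inhibitor the same genotype difference was 0.03, with an interval of −0.16 to 0.21, and the interaction was −0.10 with an interval of −0.30 to 0.10.

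Srxn1 was at 61.3, 62.5, 69.9 and 63.9 CPM in WT-D and at 73.3, 75.0, 75.0 and 66.4 CPM in WT-S. In 3xTg mice it was at 65.9, 65.7, 64.2 and 65.5 CPM with vehicle and 67.6, 75.0, 65.3 and 68.4 CPM with inhibitor. Of the WT-S mice, 3 of 4 exceeded all WT-D mice. The log2 fold change in WT-D vs WT-S was 0.17 ± 0.07 (SE) (edgeR adjusted p = 1, exact permutation p = 0.0571), and without WT-S replicate 4 it was 0.21 and passed the unadjusted threshold (edgeR adjusted p = 0.303). Blocked on replicate number, the Srxn1 difference in WT-D vs WT-S was 0.17 with an interval of 0.03 to 0.31 (edgeR adjusted p = 0.920). In 3xTg mice the inhibitor difference was 0.08, with an interval of −0.06 to 0.22, and the interaction was −0.09 with an interval of −0.27 to 0.09 (edgeR adjusted p = 0.799).

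Gpx4, the glutathione peroxidase that reduces lipid peroxides in membranes, and Fth1, the heavy subunit of ferritin, overlapped between all groups. Gpx4 means were 34.7 ± 4.20 CPM in WT and 35.9 ± 4.47 in 3xTg mice with vehicle, and 38.4 ± 6.49 and 32.8 ± 3.91 with inhibitor (SD, n = 4). The largest Gpx4 difference was −0.24 in WT-S vs 3xTg-S, with an interval of −0.53 to 0.05 (edgeR adjusted p = 0.586). In WT-D vs WT-S it was 0.15, with an interval of −0.13 to 0.43. Blocked on replicate number, that difference was 0.14 with an interval of 0.0001 to 0.28 (edgeR adjusted p = 0.920). Fth1 was at 1851, 1976, 1786 and 1734 CPM in WT-D and 2027, 2590, 1985 and 1857 CPM in 3xTg-D. With inhibitor it was at 1847, 2319, 2089 and 1476 CPM in WT-S and 1863, 2322, 1650 and 1418 CPM in 3xTg-S. The SD of Fth1 was 105 CPM in WT-D, the narrowest group, against 325 CPM in 3xTg-D, 360 CPM in WT-S and 385 CPM in 3xTg-S. The largest Fth1 difference, 0.21 in WT-D vs 3xTg-D, had an interval of −0.01 to 0.42 (edgeR adjusted p = 0.426, exact permutation p = 0.0571), and was 0.09 without 3xTg-D replicate 2 (edgeR adjusted p = 0.568).

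**Figure D2:**
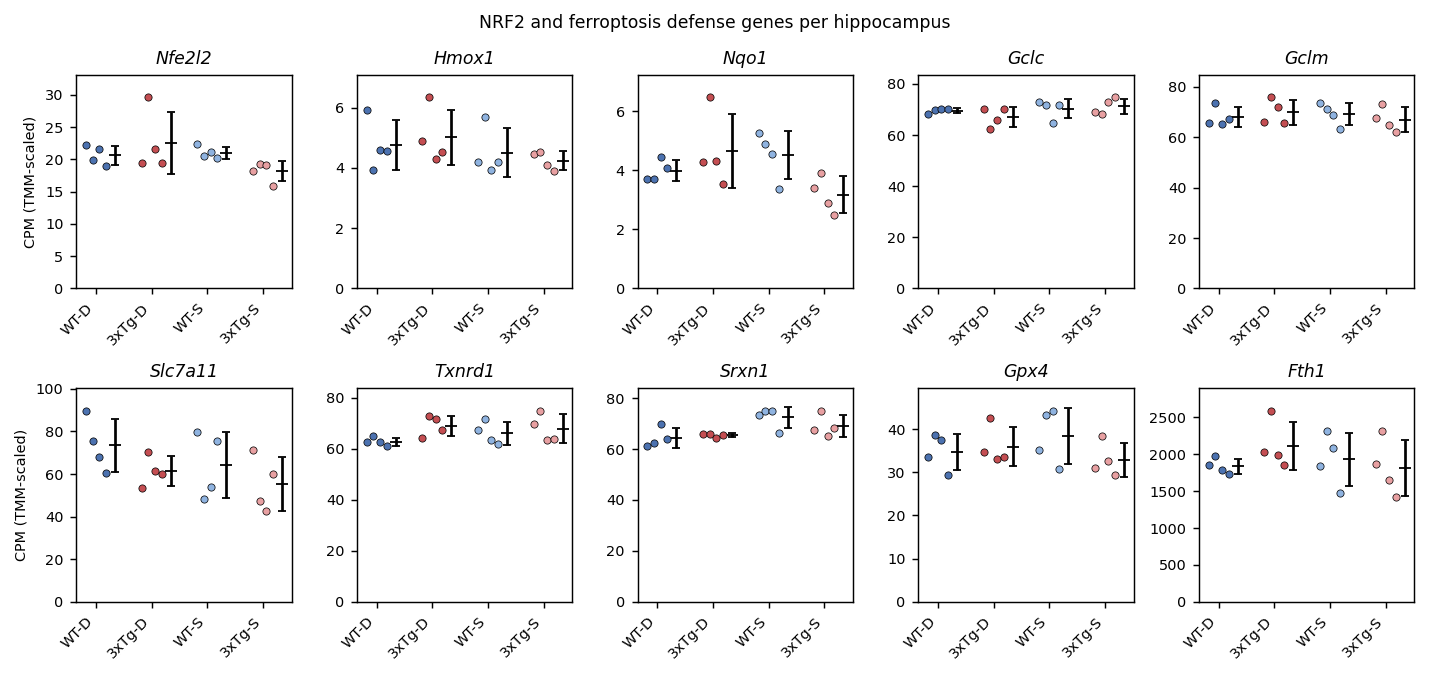
TMM-scaled CPM (y axis, from 0) of each of the 10 genes in every mouse, by group, with points in the order of replicates 1 to 4 and the bar beside them giving mean ± SD (n = 4). 3xTg-D replicate 2 is the highest point of Nfe2l2, Hmox1, Nqo1, Gclm and Fth1, and 3xTg-S replicate 4 the lowest point of the same 5 genes.

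The median log2 fold change of the 10 genes was 0.07 in WT-D vs 3xTg-D with 8 genes above 0, −0.10 in WT-S vs 3xTg-S with 2 above 0, −0.14 in 3xTg-D vs 3xTg-S with 2 above 0, 0.05 in WT-D vs WT-S with 8 above 0 and −0.07 in WT-D vs 3xTg-S with 3 above 0. The median over all 16475 genes was within 0.01 of 0 in each, with 50%, 50.4%, 51.9%, 49.9% and 48.8% of them above 0. For the interaction the median was −0.13, with 2 of the 10 genes and 51.9% of all genes above 0. Without 3xTg-D replicate 2 the median in WT-D vs 3xTg-D was −0.01 with 4 genes above 0, that in 3xTg-D vs 3xTg-S was −0.07 with 2 above 0, and that of the interaction was −0.09 with 2 above 0. The median in WT-D vs 3xTg-D thus changed sign with 1 mouse, and it was 0.04 without WT-D replicate 4. In WT-D vs WT-S the median ran from 0.02 without WT-S replicate 2 to 0.09 without WT-S replicate 4, and 5 genes were above 0 without WT-S replicate 1. In WT-D vs 3xTg-S it ran from −0.18 without 3xTg-S replicate 2 to −0.02 without WT-D replicate 2 or without 3xTg-S replicate 4, and in WT-S vs 3xTg-S from −0.15 without 3xTg-S replicate 2 to −0.06 without WT-S replicate 2. That of the interaction was −0.07 without WT-S replicate 2.

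Much of the spread of several genes ran along the share of uniquely mapped reads outside annotated genes, a measure of the library that no group defines. Over the 16 mice, Fth1 fell along this share with Pearson's r = −0.91 (permutation p = 1e-05, the smallest that 100000 resamples can give, adjusted over the 10 genes p = 0.0001) and Spearman's rho = −0.85 (permutation p = 6e-05). For Gclm, r was −0.80 (permutation p = 0.00015, adjusted p = 0.000667) and rho −0.78 (permutation p = 0.00052), and for Gpx4 r was −0.79 (permutation p = 0.0002, adjusted p = 0.000667) and rho −0.83 (permutation p = 0.00014). Nqo1 had r = −0.70 (permutation p = 0.00271, adjusted p = 0.00678) and rho = −0.71 (permutation p = 0.00285), and Txnrd1 r = −0.67 (permutation p = 0.00391, adjusted p = 0.00782) and rho = −0.68 (permutation p = 0.00484). All 5 genes were thus lower in libraries with more reads outside genes. Nfe2l2 went the same way with r = −0.60 (permutation p = 0.0153, adjusted p = 0.0254) and rho = −0.57 (permutation p = 0.0222). Gclc went the opposite way, with r = 0.57 (permutation p = 0.0220, adjusted p = 0.0314) and rho = 0.54 (permutation p = 0.0329). No relation passed for Hmox1 (r = −0.48, permutation p = 0.0622, adjusted p = 0.0778; rho = −0.34, permutation p = 0.196), Srxn1 (r = −0.35, permutation p = 0.187, adjusted p = 0.208; rho = −0.28, permutation p = 0.289) or Slc7a11 (r = 0.19, permutation p = 0.475, adjusted p = 0.475; rho = 0.18, permutation p = 0.504).

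Such relations were common in these libraries. Of all 16475 genes, 19.1% had r of −0.5 or lower and 22.1% had r of 0.5 or higher, against 6 and 1 of the 10 genes. When 3xTg-S replicates 4 and 2, whose shares lay farthest from the median, were left out, r over 14 mice was −0.87 for Fth1, −0.73 for Gclm, −0.82 for Gpx4, −0.70 for Nqo1, −0.63 for Txnrd1, −0.62 for Nfe2l2 and 0.48 for Gclc. Within the 8 WT and the 8 3xTg mice, r was −0.95 and −0.91 for Fth1, −0.68 and −0.88 for Gclm, −0.82 and −0.87 for Gpx4, −0.58 and −0.76 for Nqo1, and −0.82 and −0.77 for Txnrd1. For Nfe2l2 r was −0.30 in WT and −0.69 in 3xTg mice, and for Gclc 0.19 and 0.75, and the difference between the genotypes was not tested. Groups of 4 mice were too small for a value of their own. As a median, the share was highest in 3xTg-S (12.4%), then WT-D (11.2%), 3xTg-D (10.5%) and WT-S (10.2%).

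With the share as a covariate, the Nqo1 difference in 3xTg-D vs 3xTg-S was −0.38 in place of −0.55 (edgeR adjusted p = 0.762), and its interaction was −0.48 in place of −0.73. In WT-S vs 3xTg-S, the Nqo1 difference with the covariate was −0.40 in place of −0.52 (edgeR adjusted p = 0.267), and that of Nfe2l2 −0.19 in place of −0.23 (edgeR adjusted p = 0.319). The Fth1 difference in WT-D vs 3xTg-D was 0.06 in place of 0.21 with the covariate. The part of RNA quality, tissue dissection or cell makeup in this share was not tested.

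**Figure D3:**
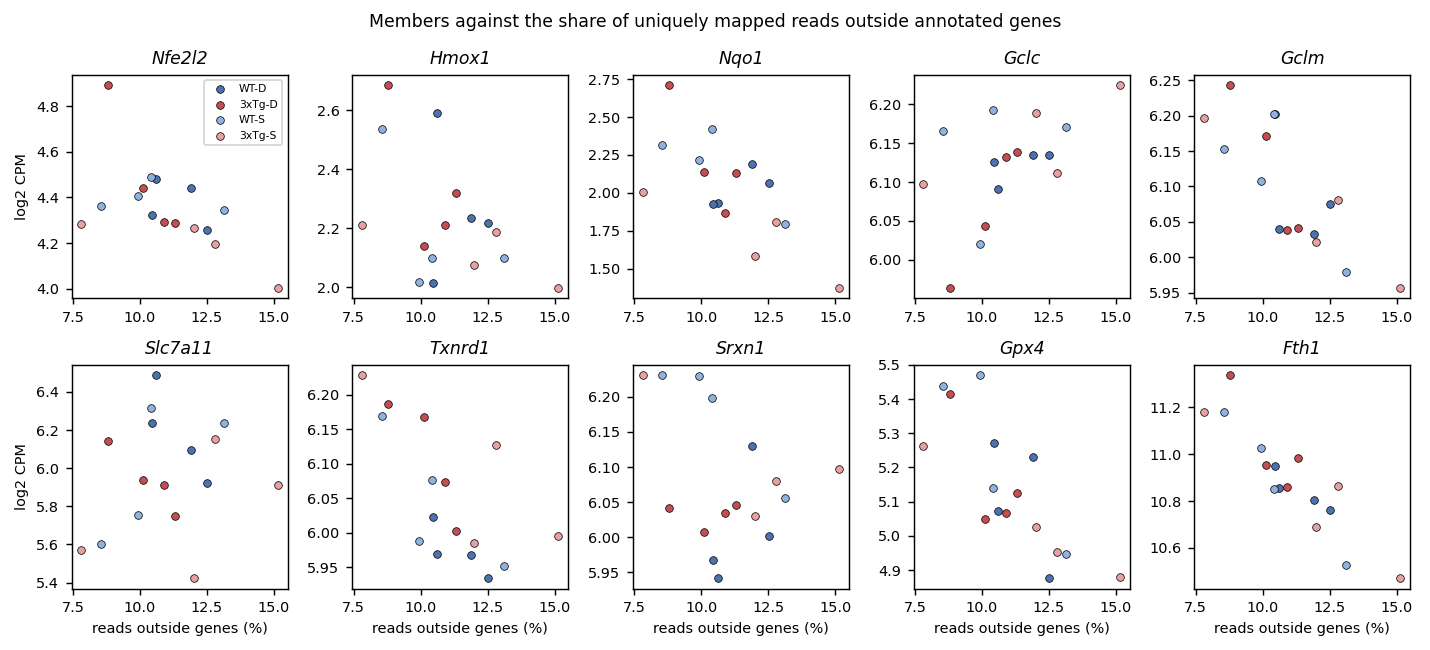
Log2 CPM (y axis, own scale in each panel) of each of the 10 genes against the percentage of uniquely mapped reads outside annotated genes (x axis), 1 point per mouse, coloured by group. Fth1, Gclm and Gpx4 fall along the axis in both genotypes, and Gclc rises. For Slc7a11 no relation passed over all mice together (r = 0.19), and slopes within single groups were not tested.

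The same 2 mice marked the ends of several genes. 3xTg-D replicate 2 was the highest of 16 mice for Nfe2l2, Hmox1, Nqo1, Gclm and Fth1 and the lowest for Gclc, and had 8.79% of its reads outside genes. 3xTg-S replicate 4 was the lowest of 16 for the same 5 genes and the highest for Gclc, and had 15.1% outside genes, the lowest astrocyte sum (2153 CPM) and a microglia sum of 224.7 CPM. Between the 10 genes, r over the 16 mice ranged from −0.70 to 0.84, with a median of 0.31 over the 45 pairs and 31 pairs above 0. The highest was that of Nfe2l2 with Nqo1 and the lowest that of Nfe2l2 with Gclc. These correlations describe points that share library depth, cell makeup and the share above.

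Genes whose pattern over the 16 mice was most like a member were found by the highest r among the other 16474 genes. Nfe2l2 was followed most closely by Tmem176b (r = 0.91) and by the mitochondrial transfer RNA gene mt-Ta (0.90), and Nqo1 by Ccdc190 (0.94) and Cd63 (0.93). Hmox1 was closest to Cyba (0.89), a subunit of the phagocyte NADPH oxidase, and Klhl36 (0.87), and Slc7a11 to Gbp9 and Lox (0.86 for both). For Gclc these were Naa25 (0.89) and 1500004A13Rik (0.87), and for Gclm Tmed5 (0.97) and Rcn2 (0.96). Txnrd1 was closest to Pgrmc2 (0.91) and Dcaf12 (0.89), and Srxn1 to BC048403 (0.83) and Ppm1a (0.80). Gpx4 was closest to Fbxo2 and Gatd3a (0.95 for both), and Fth1 to Eef1a1 and Rhoa (0.96 for both). No member of the set was the nearest gene of another. Lox was sparse, at a mean of 0.476 CPM, and so were mt-Ta (2.90), Klhl36 (3.03), Cyba (3.85) and Gbp9 (4.28 CPM). Each r was picked as the highest of 16474 and was not tested.

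The wider pathway around the 10 genes was read from 10 lists with 192 other genes, of which 177 were tested. In WT-D vs 3xTg-D, 7 of the 177 genes rose and 6 fell in 3xTg-D mice at the same unadjusted threshold, which is 7.34% against 4.91% of all genes, with a median log2 fold change of 0.04. The number that rose depended on single mice. Without WT-D replicate 4 it was 2, with 7 lower, 5.08% against 4.1% of all genes. The number was 4 without WT-D replicate 3 (5 lower, 5.08% against 4.11%) or without 3xTg-D replicate 1 (6 lower, 5.65% against 4.11%). Cisd2, an iron-sulfur protein of the endoplasmic reticulum and outer mitochondrial membrane, rose from 43.5 ± 2.65 to 65.6 ± 3.02 CPM (log2 fold change 0.60 ± 0.06 SE, edgeR adjusted p = 0.000485). Me3, the mitochondrial malic enzyme that makes NADPH, fell from 73.7 ± 2.39 to 45.7 ± 8.65 CPM (−0.69 ± 0.11, edgeR adjusted p = 0.00932). Both passed in every refit with 1 mouse left out, and the groups did not overlap in either gene, as was so for 8.17% of all genes. A230065N10Rik on the opposite strand covers 569 of the 14624 exonic bases of Me3.

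Gsr, glutathione reductase, which uses NADPH to return oxidized glutathione to its reduced form, fell from 36.4 ± 1.58 to 29.7 ± 2.22 CPM (−0.29 ± 0.07, edgeR adjusted p = 0.0582). A further 2 genes of glutathione use rose, Glrx, glutaredoxin, by 0.33 (edgeR adjusted p = 0.0621) and Gsto1, an omega-class glutathione transferase, by 0.29 (edgeR adjusted p = 0.147). Hfe, the hemochromatosis gene, fell by 0.69 on the log2 scale (edgeR adjusted p = 0.0688). Cp, the ferroxidase ceruloplasmin, fell by 0.75 (edgeR adjusted p = 0.0919). In WT-D replicates 1 to 4 Cp was at 36.1, 24.4, 28.5 and 19.3 CPM. The choroid plexus marker sums of the same mice were 27.5, 60.2, 46.8 and 727 CPM. These sums were 28.1 to 45.3 CPM in 3xTg-D mice, and their part in the Cp difference was not tested. Idh1, cytosolic NADPH-forming isocitrate dehydrogenase, rose by 0.21 and Cbr1, carbonyl reductase, by 0.24. Among the suppressors of ferroptosis other than GPX4, Aifm2, which encodes the coenzyme Q reductase FSP1, rose by 0.38 and the phospholipase gene Pla2g6 fell by 0.36 on the log2 scale. Cyb561d2, from the list of lipid peroxidation and ferroptosis drivers, rose by 0.43. Adjusted p was 0.0733 to 0.163 by edgeR for these last 5 genes. Gsr, Glrx, Hfe, Cp and Pla2g6 passed the unadjusted threshold in all 8 refits with 1 mouse left out. Idh1 lost it without WT-D replicate 4 or 3xTg-D replicate 1, and Gsto1, Cbr1, Cyb561d2 and Aifm2 lost it in 5, 5, 5 and 6 of the 8 refits. The regulators and partners of NRF2, the other thioredoxin and peroxiredoxin genes, the superoxide and peroxide removers and the selenoprotein synthesis genes had 0 calls among 15, 17, 6 and 19 tested, with 1, 1, 1 and 1 gene at p under 0.05.

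In WT-S vs 3xTg-S, 2 of the 177 genes rose and 9 fell in 3xTg-S mice, which is 6.21% against 4.26% of all genes, with a median of −0.07. Iron handling held 7 of these 11, with 2 genes higher and 5 lower among 22 tested. Cisd2 rose from 46.5 ± 2.64 to 65.0 ± 2.92 CPM (edgeR adjusted p = 0.00981). Steap3, an endosomal reductase that turns ferric into ferrous iron, fell from 4.56 ± 0.380 to 2.76 ± 0.249 CPM (edgeR adjusted p = 0.0309), and Hfe fell from 4.72 ± 0.722 to 2.68 ± 0.521 CPM (edgeR adjusted p = 0.0577). Outside the iron list, Gsr fell from 38.9 ± 5.40 to 27.7 ± 2.03 CPM (edgeR adjusted p = 0.0473) and Me3 from 69.6 ± 10.0 to 41.3 ± 2.55 CPM (edgeR adjusted p = 0.00529). Gstm1, a mu-class glutathione transferase from a family of close copies, fell by 0.41 on the log2 scale (adjusted p = 0.142 by edgeR), and Ephx1, microsomal epoxide hydrolase, by 0.44 (adjusted p = 0.0594 by edgeR). Gstm1 lost the unadjusted threshold without WT-S replicate 2, WT-S replicate 3 or 3xTg-S replicate 4, and the other 10 genes kept it in every refit with 1 mouse left out. Without the 2 mice with the lowest and highest share of reads outside genes, a setting chosen after the data were seen, 2 of the 177 genes rose and 3 fell, 2.82% against 3.10% of all genes. The NRF2 regulators, thioredoxin genes, peroxide removers, other ferroptosis suppressors, drivers of lipid peroxidation and selenoprotein genes had 0 calls, with 0, 2, 0, 1, 0 and 2 genes at p under 0.05.

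In 3xTg-D vs 3xTg-S, 0 of the 177 genes rose and 4 fell with inhibitor, which is 2.26% against 0.904% of all genes, and none of the 4 had an adjusted p under 0.722 by edgeR. Trf, transferrin, which oligodendrocytes make in brain, fell from 299.9 ± 32.8 to 212.8 ± 27.2 CPM (−0.49 ± 0.11 on the log2 scale). The oligodendrocyte sum was 5298 to 6376 CPM in 3xTg-D and 4064 to 6405 CPM in 3xTg-S, with 3xTg-S replicate 2 at the upper end, and its part in the Trf difference was not tested. Exons of Gm20425 cover 2108 of the 3320 exonic bases of Trf on the same strand, so that the assignment of its reads is uncertain. Steap3 fell from 4.01 ± 0.592 to 2.76 ± 0.249 CPM (−0.54 ± 0.16), Ephx1 from 20.3 ± 1.24 to 17.0 ± 1.11 CPM (−0.26 ± 0.08) and the pentose phosphate enzyme gene Tkt from 118.6 ± 3.42 to 102.5 ± 7.45 CPM (−0.21 ± 0.07). Trf passed the unadjusted threshold in every refit with 1 mouse left out, whereas Steap3 lost it in 6 and Ephx1 and Tkt each in 7 of the 8 refits. The count of 4 rested on which mice were included. Without 3xTg-S replicate 2, 3 of the 177 genes rose and 11 fell, 7.91% against 4.87% of all genes. Without any other single mouse 0 rose and 1 to 2 fell, 0.565% to 1.13% against 0.413% to 1.65% of all genes. The share of the lists was below that of all genes without 3xTg-D replicate 4 or 3xTg-S replicate 1, and above it without any other mouse. Without the mice of lowest and highest share outside genes 0 rose and 2 fell, 1.13% against 1.09% of all genes.

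In WT-D vs WT-S, edgeR called 0 of the 177 genes, against 0.188% of all genes, and 2 fell under p of 0.05. In WT-D vs 3xTg-S, 3 rose and 11 fell, which is 7.91% against 5.69%, and iron handling held 8 of these 14 with 2 genes higher and 6 lower. Me3 fell by 0.85 on the log2 scale (edgeR adjusted p = 4.57e-05), Cisd2 rose by 0.56 (edgeR adjusted p = 0.00120), Hfe fell by 0.96 (edgeR adjusted p = 0.0169) and Gsr fell by 0.41 (edgeR adjusted p = 0.0177). Slc39a8, a metal importer, fell by 0.69 (edgeR adjusted p = 0.0579), Ephx1 fell by 0.32 (edgeR adjusted p = 0.0555) and Gstm1 fell by 0.29 (edgeR adjusted p = 0.122). Glrx rose by 0.34 (edgeR adjusted p = 0.164) and the selenoprotein gene Selenom fell by 0.27 (edgeR adjusted p = 0.170). Gstm1 lost the unadjusted threshold without WT-D replicate 2 or 3, and Glrx and Selenom lost it in 7 and 6 of the 8 refits with 1 mouse left out. The counts were 1 higher and 7 lower without WT-D replicate 2, 4.52% against 4.44% of all genes. They were 1 higher and 8 lower, 5.08%, without WT-D replicate 1, WT-D replicate 3 or 3xTg-S replicate 3. The shares of all genes in these 3 refits were 4.07%, 4.56% and 4.03%. Without 3xTg-S replicate 2 the counts were 5 higher and 16 lower, 11.9% against 9.38% of all genes. The interaction passed the threshold for 2 of the 177 genes, 1.13% against 0.595% of all genes, and both were lower. Steap3 had an interaction of −0.70 ± 0.18 and Ephx1 one of −0.38 ± 0.11, with edgeR adjusted p = 0.788 for both. Both passed the unadjusted threshold in every refit with 1 mouse left out. The count of genes was 7 without WT-S replicate 4 (0 higher and 7 lower), 3.95% against 2.31% of all genes. Without 3xTg-S replicate 2 the count was also 7 (1 higher and 6 lower), 3.95% against 2.96% of all genes. It was 2 higher and 2 lower without the mice of lowest and highest share outside genes, 2.26% against 0.971%.

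**Figure D4:**
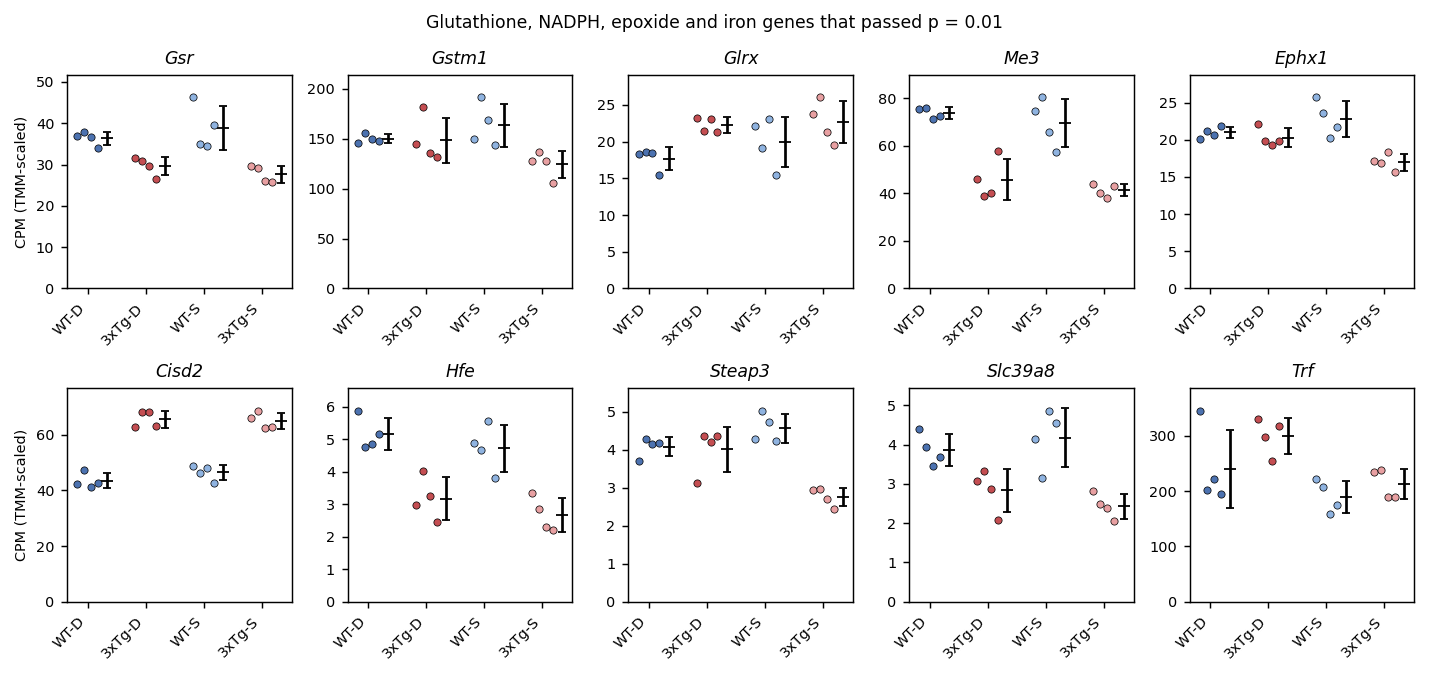
TMM-scaled CPM (y axis, from 0) of 10 pathway genes that passed an unadjusted p of 0.01 in at least 1 comparison by edgeR, in every mouse, by group, with points in the order of replicates 1 to 4 and the bar giving mean ± SD (n = 4). The 8 3xTg mice lie above the 8 WT mice in Cisd2, at 62.5 to 68.6 against 41.4 to 48.6 CPM. They lie below them in Gsr, at 25.8 to 31.5 against 34.1 to 46.2 CPM. In Steap3 the 3xTg-S mice lie at 2.43 to 2.96 CPM, below every other mouse. The share of all genes separated in these ways was not counted.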

How the data were processed

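Hippocampal RNA from 16 mice (4 groups of 4) was sequenced as single-end mRNA libraries. The authors deposited a table of raw counts per gene, made with Trimmomatic 0.35, STAR 2.5.1b and GRCm38 with Gencode gene models. The adapters carried molecular identifiers, but the strand setting and whether duplicates were removed are not given in the sources used here. The 4 alignment summary lines, 24.0% to 27.8% of the reads, were kept out of totals and tests. Per-million and per-length values were computed from the counts here.

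Genes were filtered with filterByExpr (minimum count 10) over all 16 mice, scaled by TMM and tested pairwise within the 8 mice of a comparison with edgeR 4.0.16 (quasi-likelihood F test, two-sided, in R 4.3.3). The interaction was fitted in all 16 mice. A call was an unadjusted p of 0.01 or less, the study's own threshold, and Benjamini-Hochberg adjusted p-values run over all 16475 genes. The interval of a fold change is the 95% interval of the same fit. Exact permutation tests of the members' mean log2 CPM were added after the fits were seen. Relations across mice used 100000 permutations. The tests were checked on simulated counts.

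The members, the pathway lists and the tests were chosen with earlier results of these data known. All 10 members are named, at most 3 called genes of each list and comparison (those with the smallest p), the 2 genes most like each member, and Thy1. Overlaps come from Gencode M21. Replicate numbers come from the sample titles, and no source used here ties them to a cage, litter or batch, so that p-values measure the spread between mice. No 2 libraries were alike within sampling noise. Same-numbered WT-D and WT-S mice correlated above 0.1 in all 4 pairs (r 0.114 to 0.340), which by the rule used makes those numbers pairs, and in no other comparison were all 4 above 0.1. Alternatives were DESeq2 1.42.0, median-ratio scaling, no or a stricter count filter, 1 fit of all mice, a replicate block, 2 covariates, and each mouse left out. Counted reads may not be independent molecules.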

Additional observations from a re-analysis of the deposited data

Results flagged for a closer look

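Of the 40 sets of 4 mice (10 genes in 4 groups), 2 held a mouse far from the other 3 by Dixon's criterion for 4 values at the 95% level, and chance gives about 1 in 20. Hmox1 in WT-S replicate 2 was at 5.70 CPM, while the other 3 WT-S mice lay between 3.94 and 4.18 CPM. Gclc in WT-S replicate 3 was at 64.8 CPM, while the other 3 lay between 71.7 and 73.1 CPM. The same mouse was the highest of 16 for Gpx4, at 44.2 CPM.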

How the results depend on the processing

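The count of called members was 0 of 10 in each of the 5 pairwise comparisons and in the interaction, and it stayed 0 with DESeq2, with median-ratio scaling, with at least 10 counts in every mouse and at an adjusted p of 0.05, in the 5 pairwise comparisons with 1 fit of all 16 mice, and (an alternative chosen after seeing the data) without the 2 mice with the lowest and highest share of reads outside genes. With no filter on low counts it was 1 in 3xTg-D vs 3xTg-S and 1 in the interaction (Nqo1 in both) and 1 in WT-D vs 3xTg-S (Slc7a11). With the share outside genes as a covariate the genotypes under vehicle gave 1, and with the choroid plexus covariate these gave 1 and WT-D vs 3xTg-S gave 1, Slc7a11 each time. Leaving out 1 mouse gave 0 to 1 in WT-S vs 3xTg-S, in WT-D vs WT-S, in WT-D vs 3xTg-S and in the interaction, and 0 in the other 2. The cause of these changes was not tested. Of 1070 refitted single-gene differences, 1051 stayed on their side of the unadjusted threshold and 19 passed it in addition. No member had passed it in the main fits, so that none could lose it or change sign after passing. Scaling by median ratios moved the median of all genes by less than 0.01.

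Blocked on replicate number, the count was 2 in WT-S vs 3xTg-S (Nqo1 and Slc7a11), 2 in 3xTg-D vs 3xTg-S (Nfe2l2 and Nqo1), 1 in WT-D vs 3xTg-S (Slc7a11), 1 in the interaction (Nqo1) and 0 in both others, with edgeR adjusted p-values of 0.0879 or more throughout. The block also raised the share of all genes called, to 8.13%, 6.88%, 6.53% and 3.79% in the first 4. The interaction includes the WT-D and WT-S mice, whose numbers were pairs by the rule used, and also the 3xTg mice, whose numbers were not shown to pair them. In the other 4 pairwise comparisons the numbers were not shown to pair the mice: same-numbered mice correlated at −0.101 to 0.496 in WT-S vs 3xTg-S, 0.0158 to 0.391 in 3xTg-D vs 3xTg-S, 0.0616 to 0.257 in WT-D vs 3xTg-S and −0.0960 to 0.185 in WT-D vs 3xTg-D, and 6, 4, 7 and 3 of 8 mice correlated best with their own number (7 of 8 in WT-D vs WT-S, where the block changed no call). At 4 mice a group and 45 to 154 reads, Nqo1 differences of −0.52 and −0.55 did not pass the threshold.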
